A study of Mus musculus with 8 samples.

Results

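The collagen genes other than those of collagen IV were followed in bulk RNA-seq libraries of mouse embryonic lung taken at E13.5. They were the genes of the deposited count table whose symbol has the form of Col, a number, the letter a and a number, leaving out Col4a1 to Col4a6. The rule found 38 genes of 55401 in the table, in 6 classes: 11 fibrillar collagens, 9 collagens of the class called FACIT (fibril-associated collagens with interrupted triple helices), 3 network-forming collagens, 4 transmembrane collagens, 6 collagen VI genes and 5 others. The 8 libraries were 4 labelled cre control and 4 labelled with Tbx4tetOcre and the Myrf allele written MyrfE6, termed mutant here. The single comparison was mutant against control lung. The labels do not explain the allele, the cells in which the Cre acts or the alleles of the controls beyond the Cre, and do not say how many embryos or litters made up a library, so a p-value here speaks of the spread among the 8 libraries and no further. Each library is of whole lung, in which fewer cells of a type and less RNA per cell cannot be told apart.

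Collagens are secreted proteins whose chains wind around each other in threes into a triple helix. Fibrillar collagens assemble into the cable-like fibrils of connective tissue, FACIT collagens sit on the surface of those fibrils, network-forming collagens build sheets, transmembrane collagens stay anchored in the cell membrane, and collagen VI makes beaded filaments close to cells. In the embryonic lung most collagen is made by mesenchymal cells, and the mesothelium covers the organ with a basement membrane beneath it. MYRF is a membrane-bound transcription factor that releases a DNA-binding fragment, known from oligodendrocytes and also expressed in mesothelium.

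Library totals ran from 17799899 to 48679134 counts, with mutant replicate 2 the deepest, and collagen genes took 1.02% to 1.21% of the counts in controls and 1.08% to 1.29% in mutants. Myrf itself was lower in every mutant library, at 92.4, 84.4, 85.3 and 91.6 counts per M counts (CPM, with library sizes scaled by TMM, the trimmed mean of M-values) against 114, 115, 107 and 120 in the controls (log2 fold change -0.37, SE 0.0440, adjusted p = 0.000211 by edgeR's quasi-likelihood test). The libraries differed in sex-linked transcripts. Control replicates 2 and 3 held Xist at 874 and 868 CPM with Y-linked genes at or near 0, mutant replicates 1 and 2 held Y-linked genes at 133 and 144 CPM with Xist under 1 CPM, and the other 4 libraries, control replicates 1 and 4 and mutant replicates 3 and 4, held both and are termed mixed libraries here. Mutant replicate 4 lay beside control replicate 4 on the first principal component (-4.12 and -4.96). Defining markers of lung epithelium and mesenchyme were present in every library, and the summed level of 8 mesothelial markers was 183 to 223 CPM in mutants against 250 to 272 in controls, with 3 of the 8 called lower. In edgeR 1 of 8 epithelial markers (Etv5) and 1 of 8 mesenchymal markers (Wnt2) fell and 1 of 6 endothelial markers rose. Of 7 smooth muscle, 6 bone and 4 skeletal muscle markers tested, none was called and 4, 2 and 0 had an unadjusted p below 0.05; the smooth muscle list summed to 1039 to 1132 CPM in controls and 1126 to 1240 CPM in mutants.

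Of the 35 collagen genes with enough counts to test, 2 fell in the mutant lung and none rose. They were Col6a4, a collagen VI chain, and Col14a1, a FACIT collagen. That is 2 of 35, or 5.71%, where 236 of 15788 genes over the whole table (1.49%) passed the same adjusted p of 0.05 in edgeR's quasi-likelihood test. Genes called lower made up 0.931% of all genes and genes called higher 0.564%. At an unadjusted p below 0.05 there were 10 collagen genes, 5 higher and 5 lower (28.6%, beside 13.9% of all genes). Mutant and control values did not overlap in 3 tested collagen genes, Col6a4, Col14a1 and Col8a2 (8.57%, beside 7.37% of all genes). The median log2 fold change of the 35 was 0.03, with 19 above 0 and 16 below, and the median absolute change was 0.12, beside 0.07 over all genes tested.

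**Figure D1:**
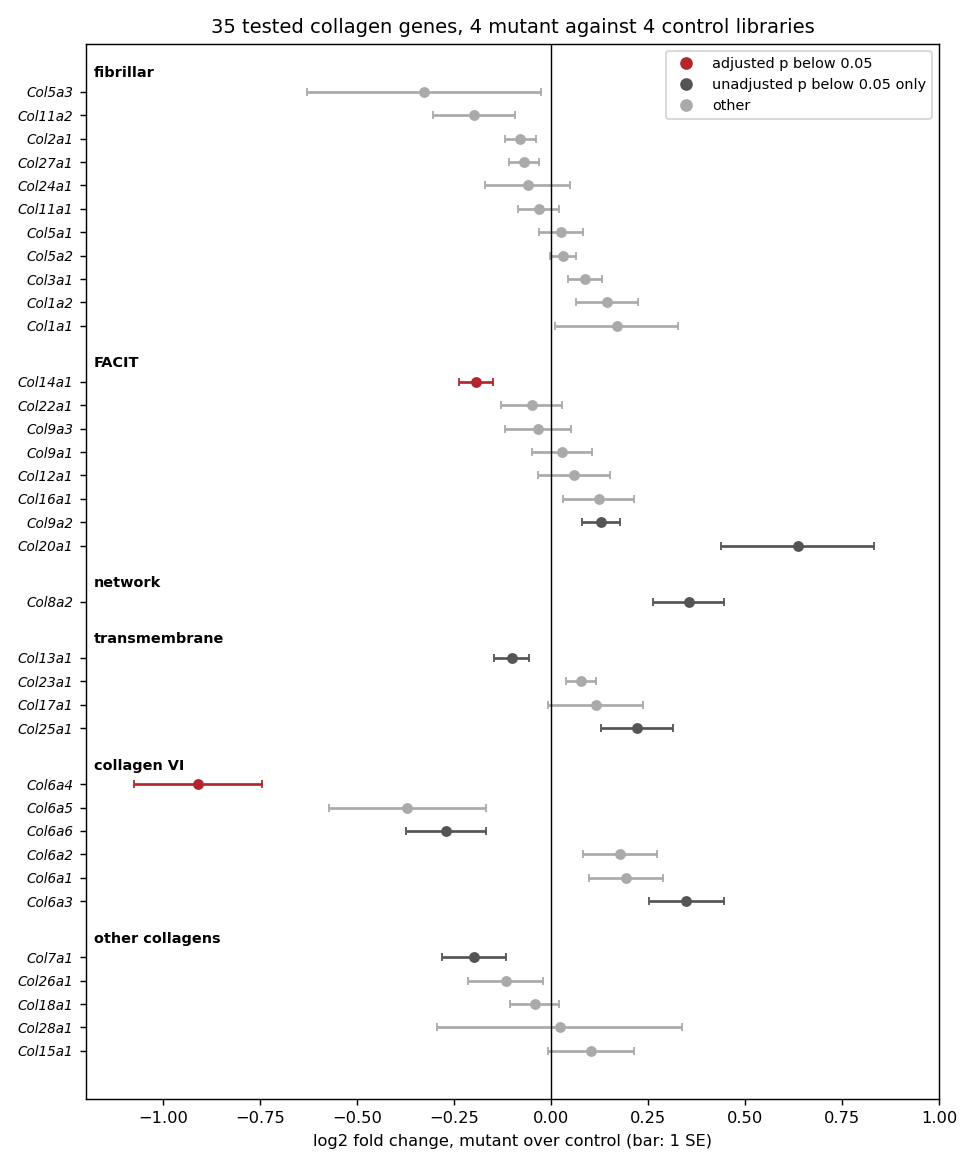
Log2 fold change of mutant over control (x axis) for each of the 35 tested collagen genes (rows, by class), with bars of 1 SE from edgeR on 4 libraries a group. Col6a4 at -0.91 and Col14a1 at -0.19 are the genes past an adjusted p of 0.05, and within collagen VI the points of Col6a1, Col6a2 and Col6a3 lie above 0 and those of Col6a4, Col6a5 and Col6a6 below.

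Short stretches of RefSeq promoter (GRCm38.p6) are shown here, because MYRF binds DNA and the windows with a match include Col6a4, the collagen with the largest change, and its neighbour Col6a6. The letters searched were CTGGCAC and CTGGTAC, the forms of the motif known to be bound by MYRF, on both strands of windows from 250 bases before to 50 bases after each RefSeq start. Windows were at hand for 30 of the 38 collagen genes, 33 windows in all, and 3 of the 33 held a match (9.09%), beside 2331 of 32851 windows of all genes (7.10%). Capitals mark the match. The runs read 5′ to 3′ along the gene's own strand, so that a match on the other strand appears as its reverse complement.
Col6a4 promoter, chr9:106096668-106096697, minus strand, match from base 6 of the transcript: gcctccccaggGTGCCAGctaagaaccagc
Col6a6 promoter, chr9:105828175-105828204, minus strand, match 108 bases before the start: caggcgggataGTGCCAGcctccaaaatcc
Col24a1 promoter, chr3:145292244-145292273, plus strand, match 217 bases before the start: atgagaacccaCTGGTACagggagagagag
In Col6a4 and Col6a6 the letters lie on the strand opposite to the gene, and in Col24a1 on the gene's strand. Col24a1, a minor fibrillar collagen, had a log2 fold change of -0.06 (SE 0.109). A match describes these letters only, and binding was not measured here. No window was at hand for Col14a1.

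Collagen VI held both the gene with the largest change among the tested collagens and a split between its chains. Col6a1, Col6a2 and Col6a3 encode the 3 chains of the common collagen VI molecule, and all 3 lay above 0 in log2 fold change, the median being 0.19. Col6a4, Col6a5 and Col6a6 encode chains that resemble the Col6a3 product, and all 3 lay below 0, the median being -0.37. Of the 6, 1 passed the test over all genes.

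Col6a4 spans chr9:105989454-106096783 on the minus strand (GRCm38) and is a protein-coding gene of low level in this tissue. It stood at 3.43, 3.89, 4.97 and 4.12 CPM in control replicates 1 to 4 and at 2.68, 1.82, 2.05 and 2.25 CPM in mutant replicates 1 to 4. Every mutant library lay below every control library. These values rest on 65, 69, 88 and 73 counts in the controls and 68, 89, 42 and 40 in the mutants. Mean CPM went from 4.10 ± 0.645 (SD, n = 4) to 2.20 ± 0.364 (SD, n = 4). The fitted level fell by 46.8%, a log2 fold change of -0.91 (SE 0.165, edgeR adjusted p = 0.00895). The call was kept in 15 of 17 alternatives, including each fit without 1 library, where the log2 fold change ran from -1.02 to -0.80. It was not kept with the Y-linked level as a covariate (log2 fold change -0.78, adjusted p = 0.115) or in the 4 mixed libraries (-0.81, adjusted p = 0.238).

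The genes next to Col6a4 on chromosome 9 are Col6a5 and Col6a6, on the same strand, with 28.8 kb between Col6a4 and Col6a5 and 27.9 kb between Col6a5 and Col6a6. Col6a6 stood at 10.6, 14.4, 11.5 and 11.4 CPM in control replicates 1 to 4 and at 11, 9.30, 10.5 and 8.78 CPM in mutant replicates 1 to 4. Only mutant replicate 1 exceeded the lowest control, and Col6a6 did not pass the test (log2 fold change -0.27, SE 0.102, edgeR adjusted p = 0.221). Col6a5 had 1.74, 3.10, 2.37 and 2.14 CPM in the controls and 1.34, 1.89, 2.05 and 1.97 CPM in the mutants. Its groups overlapped, control replicate 1 being below 3 of the mutants (log2 fold change -0.37, SE 0.203, edgeR adjusted p = 0.436). The summed level of the 3 genes was 15.7 to 21.4 CPM in controls and 13 to 15.02 CPM in mutants, ranges that do not meet. This sum includes the called Col6a4, while the groups overlapped for Col6a5 and for Col6a6. In the 4 mixed libraries the log2 fold change of Col6a5 was 0.06 and that of Col6a6 -0.18, so the 3 neighbours did not all lie on the same side of 0 there.

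Col6a3, whose product gives the common collagen VI molecule its longest chain, stood at 112, 149, 136 and 129 CPM in control replicates 1 to 4 and at 147, 167, 181 and 174 CPM in mutant replicates 1 to 4. The 2 groups met only where control replicate 2 slightly exceeded mutant replicate 1. Its log2 fold change was 0.35 (SE 0.0969) and it did not pass the test over all genes (edgeR adjusted p = 0.158). Col6a1 had 450, 569, 538 and 465 CPM in the controls and 516, 583, 635 and 578 CPM in the mutants. Col6a2 had 531, 689, 630 and 578 CPM in the controls and 610, 689, 749 and 698 CPM in the mutants. For both genes, control replicates 2 and 3 lay within the mutant range and control replicates 1 and 4 below it. Neither passed (log2 fold changes 0.19 and 0.18, edgeR adjusted p = 0.434 and 0.482).

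Ratios between collagen VI genes within a library carry no scaling between libraries. Col6a1 over Col6a2, genes that are neighbours on chromosome 10, was 0.833 ± 0.0224 in controls and 0.842 ± 0.00949 in mutants (SD, n = 4 each), a difference smaller than the control spread. Col6a3 over Col6a1 was 0.249 to 0.278 in the controls and 0.285 to 0.300 in the mutants, with no overlap. Col6a4 over Col6a3 was 0.0262 to 0.0367 in the controls and 0.0109 to 0.0182 in the mutants, again with no overlap. These ratios were chosen with the values of the genes known and were not tested.

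**Figure D2:**
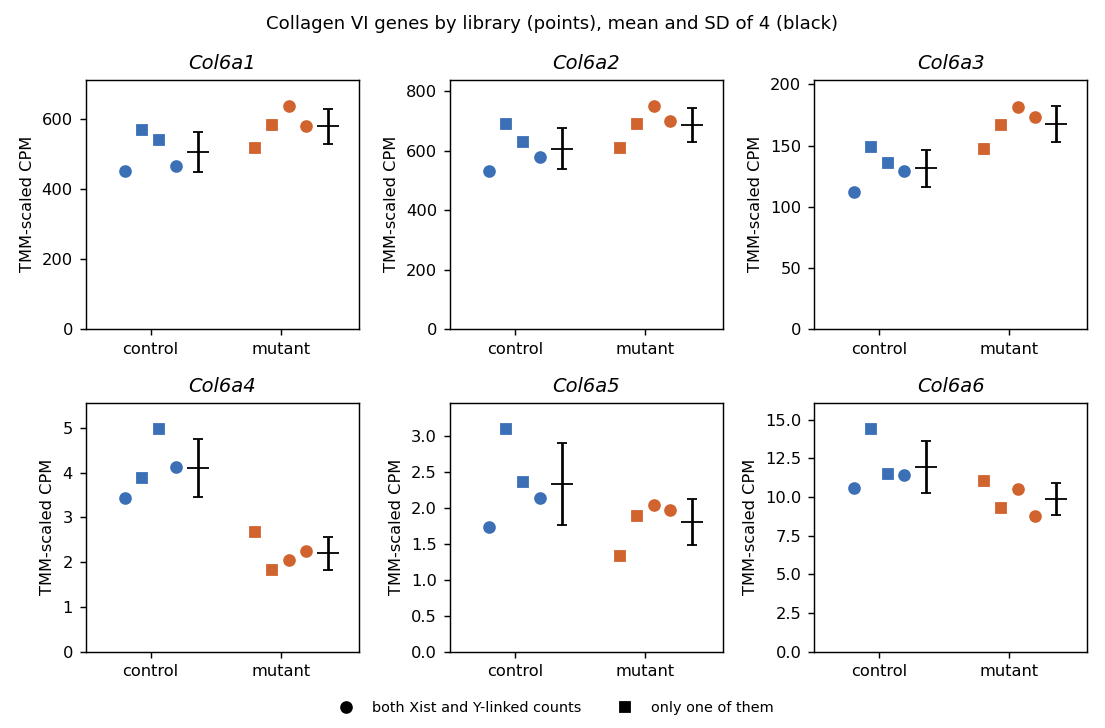
TMM-scaled CPM (y axes, from 0) of the 6 collagen VI genes in the control and mutant libraries, with 1 point per library in order of replicate and black bars for the mean and SD of 4; round points are the mixed libraries, with Xist and Y-linked counts, and squares those with only 1 of them. The Col6a4 points of the mutants, 1.82 to 2.68, all lie below those of the controls, 3.43 to 4.97, while the Col6a3 points of the mutants mostly lie above the controls.

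Among the FACIT collagens, 8 of 9 were tested and 1 fell, Col14a1. Its product binds to the surface of collagen I fibrils and regulates their growth. The gene spans chr15:55307750-55520803 on the plus strand (GRCm38). Col14a1 stood at 113, 124, 132 and 121 CPM in control replicates 1 to 4 and at 105, 107, 112 and 106 CPM in mutant replicates 1 to 4. The groups did not overlap, but the highest mutant, at 112 CPM, was close to the lowest control. Mean CPM went from 123 ± 7.90 to 107 ± 3.33 (SD, n = 4 each). The fitted level fell by 12.6%, a log2 fold change of -0.19 (SE 0.0437, edgeR adjusted p = 0.0329).

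The Col14a1 call depended on single libraries. Without control replicate 2 or 3 the adjusted p was 0.0835 and 0.117, and without mutant replicate 1 or 2 it was 0.0860 and 0.108, with log2 fold changes from -0.23 to -0.15 over the 8 fits without 1 library. Those 4 libraries are the ones that lack Xist or Y-linked counts. In the 4 mixed libraries the log2 fold change was -0.10 (adjusted p = 0.684), and with the Y-linked level as a covariate it was -0.12 (adjusted p = 0.342). Without robust estimation the adjusted p was 0.0609. The part of the sex-linked difference in the result was not tested.

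Col20a1, a FACIT collagen, had the largest positive log2 fold change of the tested collagens. It stood at 2.22, 3.16, 2.88 and 2.65 CPM in control replicates 1 to 4 and at 4.65, 3.05, 3.66 and 5.97 CPM in mutant replicates 1 to 4. Mutant replicate 4 was the highest library and mutant replicate 2 lay inside the control range. The log2 fold change was 0.64 (SE 0.197) and did not pass (edgeR adjusted p = 0.123, or 0.0444 without mutant replicate 2 and 0.00505 without the low-count filter). Col20a1 is also known as a transcript of the glial cells of peripheral nerves. Beside it, 6 neuronal markers summed to 27.0 to 33.5 CPM in controls and 34.98 to 42.4 CPM in mutants, with 1 of the 6, Ret, called higher. A list of Schwann cell and glial markers summed to 70.5 to 80.9 CPM and 81.2 to 82.9 CPM with 0 of 6 called by edgeR and 2 of 6 at an unadjusted p below 0.05. The part of these cells in the Col20a1 values was not tested.

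Collagen IX, a cartilage FACIT with 3 chains, is encoded by Col9a1, Col9a2 and Col9a3. Col9a2 had 67.7, 68.3, 61.9 and 63.9 CPM in the controls and 65.5, 73.8, 73.4 and 73.5 CPM in the mutants. Mutant replicates 2 to 4 lay above every control and mutant replicate 1 among them (log2 fold change 0.13, SE 0.0480, edgeR adjusted p = 0.216). Col9a1 and Col9a3 had log2 fold changes of 0.03 and -0.03. Col16a1, the FACIT gene with the highest level per kilobase, had 165, 190, 184 and 171 CPM in the controls and 173, 176, 225 and 201 CPM in the mutants. Mutant replicates 3 and 4 were above every control and the other mutants within the control range (log2 fold change 0.12, SE 0.0913, edgeR adjusted p = 0.632). Col12a1 and Col22a1 had log2 fold changes of 0.06 and -0.05. Col19a1 was at the limit of counting, with 2, 1, 1 and 0 counts in the controls and 0 in every mutant, where 3 counts in the smallest library correspond to 0.169 CPM, and it was not tested.

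The network-forming class was tested through Col8a2 alone. Col8a2 encodes a chain of collagen VIII, a sheet-forming collagen known from the cornea and from vessel walls. It stood at 12.99, 14.2, 16.3 and 16.5 CPM in control replicates 1 to 4 and at 16.8, 18.1, 20.8 and 21.1 CPM in mutant replicates 1 to 4. The groups did not overlap, with control replicate 4 close to mutant replicate 1. The mean was 15.0 ± 1.67 in controls and 19.2 ± 2.08 in mutants (SD, n = 4 each), a log2 fold change of 0.35 (SE 0.0911) that just missed the threshold (edgeR adjusted p = 0.0572). It passed without control replicate 4 (adjusted p = 0.0372), without mutant replicate 1 (adjusted p = 0.0370) and with DESeq2 (adjusted p = 0.0266). In edgeR it also passed with no low-count filter (adjusted p = 0.000765) and with the replicate number as a block (adjusted p = 0.0051). It did not pass in limma-voom, with the Y-linked covariate (edgeR adjusted p = 0.161) or in the 4 mixed libraries (edgeR adjusted p = 0.0923). The adjusted p ranged from 0.000765 to 0.190 over the 17 alternatives.

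Col8a1 encodes the other chain of collagen VIII and was too low for the filter. Its counts were 4, 8, 7 and 9 in the controls and 16, 42, 11 and 10 in the mutants, that is 0.211 to 0.507 CPM against 0.537 to 0.861 CPM. The groups did not overlap on the CPM scale, although control replicate 4 and mutant replicate 4 differed by 1 count. In the fit with no filter the log2 fold change was 0.80 (SE 0.374, edgeR adjusted p = 0.371). Col10a1, the collagen of hypertrophic cartilage, had no count in any control and 2, 1, 0 and 0 counts in the mutants.

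**Figure D3:**
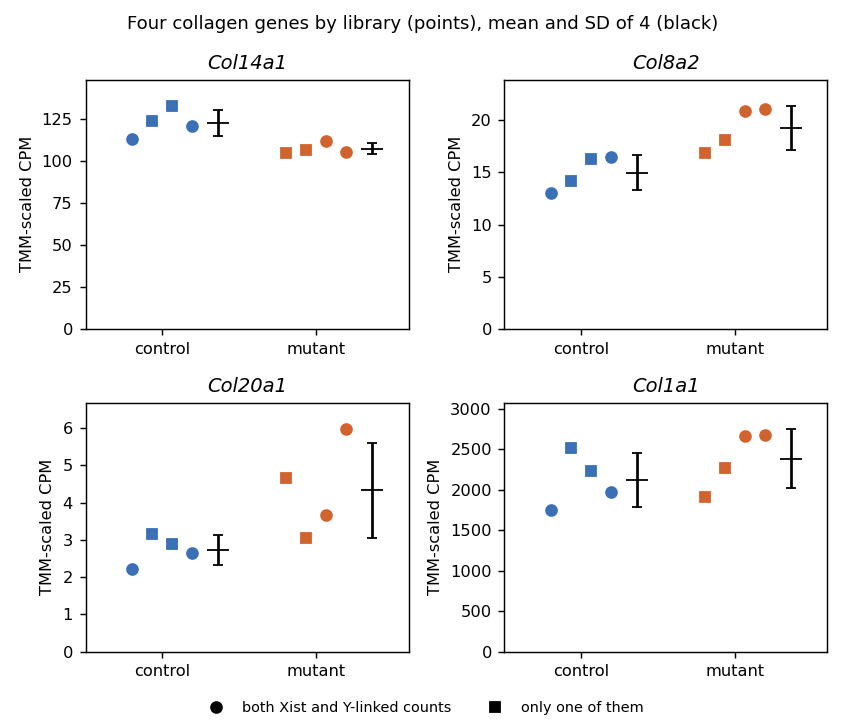
TMM-scaled CPM (y axes, from 0) of Col14a1, Col8a2, Col20a1 and Col1a1 in the control and mutant libraries, with 1 point per library in order of replicate and black bars for the mean and SD of 4; round points are the mixed libraries, with Xist and Y-linked counts, and squares those with only 1 of them. The groups do not overlap for Col14a1 and Col8a2, while for Col1a1 the round points separate (1754 and 1975 against 2669 and 2676) and the square points do not.

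None of the 11 fibrillar collagens passed the test in edgeR at an adjusted or an unadjusted p below 0.05, and DESeq2 and limma-voom also gave no call. Without the low-count filter Col1a2 and Col11a2 were called (edgeR adjusted p = 0.00738 and 0.0467). Their log2 fold changes ran from -0.33 to 0.17, 5 above 0 and 6 below, with a median of -0.03. Their summed level was 8320 ± 630 CPM in controls and 8936 ± 803 CPM in mutants (SD, n = 4 each), a difference smaller than the spread within the mutants. Most of it came from Col3a1, Col1a1 and Col1a2, which held 60.7% of all collagen counts over the 8 libraries.

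Col1a1 and Col1a2 encode the chains of collagen I, the main fibril of connective tissue. Col1a1 stood at 1754, 2520, 2230 and 1975 CPM in control replicates 1 to 4 and at 1914, 2268, 2669 and 2676 CPM in mutant replicates 1 to 4. Mutant replicates 3 and 4 were the highest libraries and mutant replicate 1 lay below 3 of the controls (log2 fold change 0.17, SE 0.158, edgeR adjusted p = 0.725). Col1a2 had 1627, 1893, 1766 and 1625 CPM in the controls and 1716, 1813, 2126 and 1982 CPM in the mutants (log2 fold change 0.14, SE 0.0801, edgeR adjusted p = 0.498). The ratio of Col1a1 to Col1a2 counts was 1.22 ± 0.107 in controls and 1.24 ± 0.0965 in mutants (SD, n = 4 each), a difference smaller than either spread.

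Col3a1 encodes collagen III, which co-assembles with collagen I in soft tissue. It had 2766, 3001, 2856 and 2701 CPM in the controls and 2793, 2907, 3177 and 3151 CPM in the mutants, with mutant replicates 3 and 4 above every control (log2 fold change 0.09, SE 0.0434, edgeR adjusted p = 0.397). Col5a1 and Col5a2, whose collagen V chains start fibrils and limit their width, had log2 fold changes of 0.03 and 0.03. Col5a2 was the steadiest collagen in the controls, with a coefficient of variation of 0.912%, against 15.6% for Col1a1. Col5a2 and Col3a1 lie 24.6 kb apart on chromosome 1, on opposite strands. Col5a3, which encodes another collagen V chain, was low at 0.792, 1.47, 1.19 and 0.958 CPM in the controls and 1.18, 1.05, 0.683 and 0.394 CPM in the mutants. Its groups overlapped widely (log2 fold change -0.33, SE 0.302, edgeR adjusted p = 0.700).

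Col2a1, Col11a1 and Col11a2 encode cartilage fibril collagens. The log2 fold changes of Col2a1 and Col11a1 were -0.08 and -0.03. Col11a2 had 53.9, 51.4, 54.3 and 50.6 CPM in the controls and 39.2, 40.2, 52.8 and 52.7 CPM in the mutants. Mutant replicates 1 and 2, the 2 libraries with next to no Xist, lay well below every other library, and mutant replicates 3 and 4 lay within the control range (log2 fold change -0.20, SE 0.106, edgeR adjusted p = 0.463). A list of 10 cartilage markers summed to 51.6 to 57.1 CPM in controls and 46.7 to 55.3 CPM in mutants, most of it Hapln1, with 0 of 6 tested genes called by edgeR and 3 at an unadjusted p below 0.05. Of the 10, Ucma, Snorc and Matn1 were at 0 or at most 0.106 CPM, while Acan was at 0.355 to 1.13 CPM and Cnmd at 1.77 to 3.72 CPM. Among the 3 with an unadjusted p below 0.05, Acan and Comp lay above 0 in log2 fold change (0.79 and 0.75) and Cnmd below (-0.46). Col27a1 and Col24a1, the remaining fibrillar genes, had log2 fold changes of -0.07 and -0.06.

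No transmembrane collagen passed in the edgeR fit of all 8 libraries or in DESeq2, with 2 of 4 at an unadjusted p below 0.05 in edgeR. Col25a1, which is known from the innervation of muscle, had 19.2, 24.2, 24.3 and 19.0 CPM in the controls and 23.2, 26.3, 28.3 and 23.1 CPM in the mutants. Control replicates 2 and 3 lay within the mutant range and the other 2 controls below it (log2 fold change 0.22, SE 0.0930, edgeR adjusted p = 0.299). Col25a1 was called without the low-count filter (edgeR adjusted p = 0.0314) and with the Y-linked covariate (edgeR adjusted p = 0.0479). Col13a1, a collagen of cell adhesion sites and the neuromuscular junction, had 125, 123, 120 and 127 CPM in the controls and 122, 106, 113 and 121 CPM in the mutants. Its groups overlapped, with mutant replicates 2 and 3 below every control (log2 fold change -0.10, SE 0.0441, edgeR adjusted p = 0.302). Col23a1 had 99.2, 99.2, 107 and 107 CPM in the controls and 107, 109.8, 106 and 111 CPM in the mutants, with the control range reaching into that of the mutants (log2 fold change 0.08, SE 0.0386, edgeR adjusted p = 0.395). Col17a1, a component of the hemidesmosomes that fix epithelia to their basement membrane, had a log2 fold change of 0.11 (SE 0.123).

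The 5 remaining collagens had log2 fold changes between -0.20 and 0.10 and none passed in edgeR or in DESeq2, with 1 at an unadjusted p below 0.05 in edgeR. That was Col7a1, which makes the anchoring fibrils below epithelial basement membranes. It had 14.2, 12.01, 15.3 and 13.9 CPM in the controls and 11.9, 11.4, 12.4 and 12.7 CPM in the mutants. Control replicate 2 lay within the mutant range and the other controls above it (log2 fold change -0.20, SE 0.0832, edgeR adjusted p = 0.282). Col18a1 and Col15a1 encode basement membrane collagens whose ends can be released as endostatin and a related fragment. Col18a1 had 547, 641, 578 and 532 CPM in the controls and 507, 586, 584 and 551 CPM in the mutants, which overlapped almost entirely (log2 fold change -0.04, SE 0.0636). Col15a1 had 89.8, 122, 113 and 105 CPM in the controls and 104, 109, 132 and 117 CPM in the mutants (log2 fold change 0.10, SE 0.111). Col26a1 and Col28a1 had log2 fold changes of -0.12 and 0.02, the latter on 6 to 17 counts per control.

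Levels of different genes were compared per kilobase of exon, in CPM. In controls the order began with Col1a1 at 323, Col3a1 at 288, Col1a2 at 139, Col6a1 at 115, Col18a1 at 81.8, Col6a2 at 72.9, Col5a1 at 68.3 and Col5a2 at 57.8 CPM per kilobase. Col1a1 and Col3a1 overlapped over the control libraries, as did Col18a1 with Col6a2 and Col6a2 with Col5a1. The called genes stood far lower, Col14a1 at 17.5 (rank 14 of 38) and Col6a4 at 0.481 CPM per kilobase (rank 32). The exon length is the union over all annotated transcripts, so a gene with long rare transcripts reads lower on this scale.

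**Figure D4:**
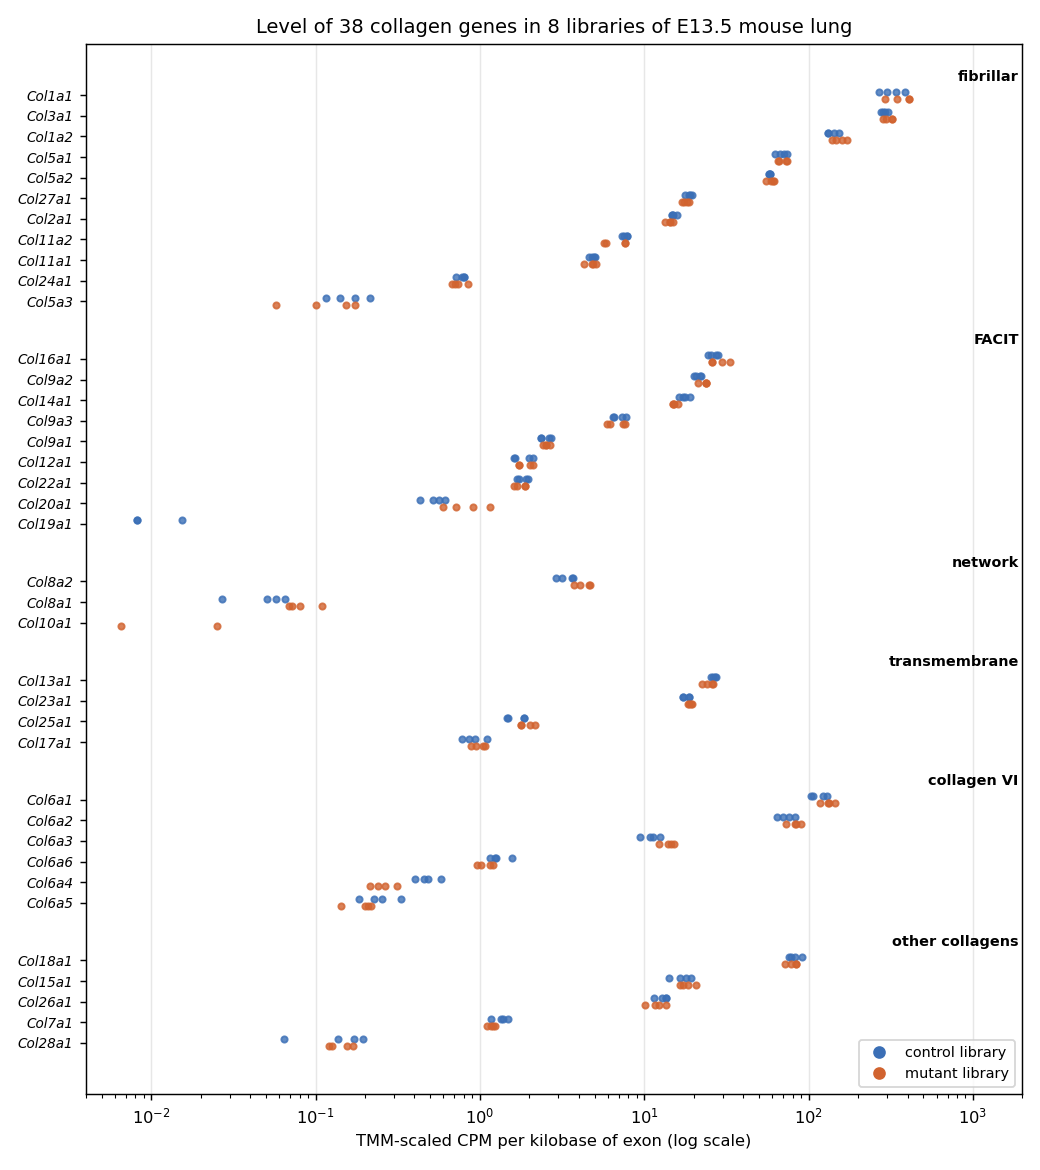
TMM-scaled CPM per kilobase of exon (x axis, log scale) of the 38 collagen genes (rows, by class) in each control and mutant library (points); libraries at 0 for Col10a1 and Col19a1 cannot be drawn on this axis. The highest control means are Col1a1 at 323 and Col3a1 at 288, and Col6a4 and Col8a2 are among the genes whose control and mutant points separate.

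The collagens did not vary independently from library to library. Among the controls, replicate 1 was the lowest library in 20 of the 35 tested collagens and the highest in 0, and replicate 2 was the highest in 21. Among the mutants, replicate 1 was the lowest in 19 and replicate 3 the highest in 18. Summed over all 38 genes the level was 10287, 12161, 11387 and 10593 CPM in control replicates 1 to 4 and 10727, 11499, 12868 and 12509 CPM in mutant replicates 1 to 4. The 2 lower controls, replicates 1 and 4, are mixed libraries, and so are the 2 higher mutants, replicates 3 and 4.

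Within the 4 mixed libraries, chosen after the data were seen and with 2 a group, 7 of 35 collagens were called and all 7 were higher in the mutant, where 87 of 15924 genes (0.546%) were called in either direction. They were Col1a1, Col1a2, Col3a1, Col16a1, Col6a1, Col6a2 and Col6a3. Col1a1 averaged 1864 CPM in the 2 controls and 2672 CPM in the 2 mutants of this kind (log2 fold change 0.52, SE 0.0531, edgeR adjusted p = 0.00105). Col6a3 averaged 121 and 178 CPM (log2 fold change 0.56, SE 0.0656, edgeR adjusted p = 0.00203). The other 5 had log2 fold changes from 0.22 for Col3a1 to 0.41 for Col6a1, with adjusted p of 0.0311 and 0.00204. Of the 35 genes, 25 lay above 0 and 10 below.

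In the other 4 libraries the same genes did not lie higher in the mutant, apart from Col6a3. There the controls held only Xist and the mutants only Y-linked transcripts, so that group and sex-linked transcripts cannot be told apart. Col1a1 averaged 2375 CPM in those 2 controls and 2091 CPM in those 2 mutants, a log2 ratio of -0.18. Col6a1 averaged 554 and 550 CPM, a log2 ratio of -0.01, and Col6a3 142 and 157 CPM, a log2 ratio of 0.14. The sign of the log2 ratio was the same in both kinds of library for 17 of the 35 genes. The difference between the 2 kinds was not tested.

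A fit over all 8 libraries with the Y-linked level (log2) as a covariate called 3 collagens, all higher, where 0.614% of all genes were called. These were Col6a1 (log2 fold change 0.36, edgeR adjusted p = 0.0179), Col6a3 (0.49, adjusted p = 0.0350) and Col25a1 (0.42), and neither Col6a4 nor Col14a1 was among them. The Y-linked level was at or near 0 in control replicates 2 and 3 and 64.4 to 144 CPM in every other library. The covariate thus mainly set those controls apart, and the fit compared the mutants largely with control replicates 1 and 4. It cannot separate sex from the other differences of those controls. With the replicate number as a block, 6 collagens were called, where 3.43% of all genes were, as given with the alternatives. Col6a3 was called in 5 of the 17 alternatives and was above 0 in all of them.

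**Figure D5:**
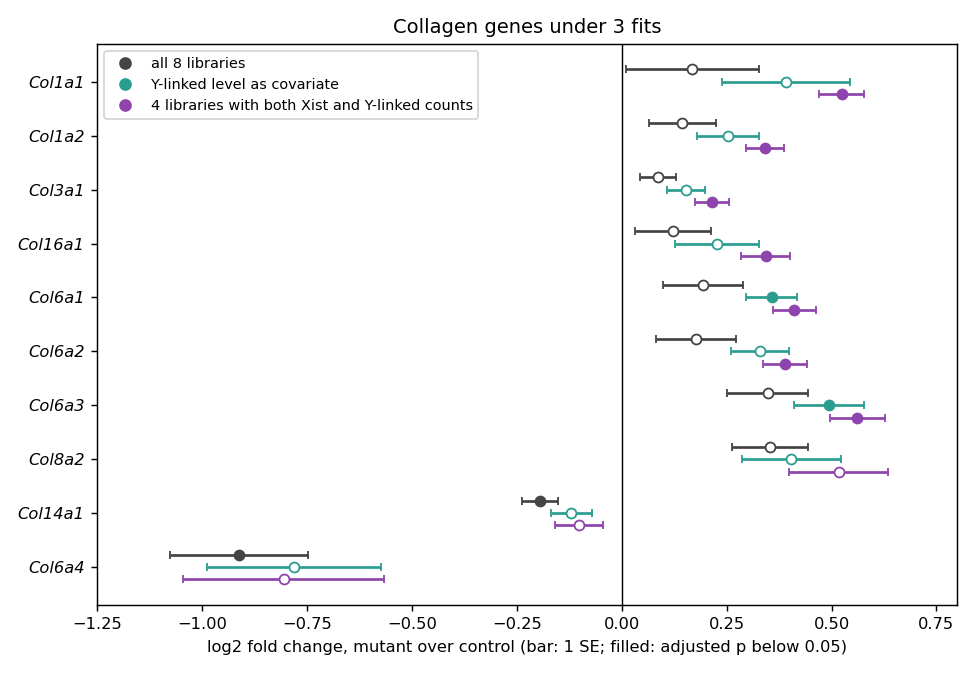
Log2 fold change of mutant over control (x axis) with bars of 1 SE for 10 collagen genes (rows) under 3 edgeR fits: all 8 libraries, all 8 with the Y-linked level as a covariate, and the 4 mixed libraries, which hold Xist and Y-linked counts; filled points have an adjusted p below 0.05. Col1a1 moves from 0.17 to 0.52 between the first and the last fit, while Col6a4 stays between -0.91 and -0.78 and is filled only in the first.

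The 6 collagen IV genes were left out by the rule and stand beside the others for comparison. Col4a3 and Col4a4 had log2 fold changes of -0.86 and -0.96 with adjusted p below the threshold, and the log2 fold changes of Col4a1, Col4a2, Col4a5 and Col4a6 were between -0.04 and 0.03. The log2 fold change of Col6a4, -0.91, lay between those of Col4a3 and Col4a4.

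The genes that make, process and bind collagen were followed as 61 genes in 5 lists, chosen with earlier results of these data known. Of 54 tested, 1 rose and none fell, a share of 1.85% that is near the 1.49% of all genes. The gene was Loxl1, which encodes an enzyme that cross-links elastin and collagen. Loxl1 stood at 29.7, 36.5, 41.1 and 38.5 CPM in control replicates 1 to 4 and at 45.5, 44.9, 46.7 and 45.5 CPM in mutant replicates 1 to 4, with no overlap. Its log2 fold change was 0.32 (SE 0.0747, edgeR adjusted p = 0.0473). It was called in 9 of 17 alternatives, with adjusted p from 3.14e-07 to 0.152, and was not called in the 4 mixed libraries, without robust estimation, without control replicate 1 or 2 or without any 1 of the 4 mutants. Lox, Loxl2, Loxl3 and Loxl4, the other enzymes of the family, did not pass.

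Of 22 chaperones and hydroxylases, 19 lay above 0 in log2 fold change and none was called by edgeR or DESeq2, with 2 at an unadjusted p below 0.05 in edgeR. The smallest p was that of Serpinh1, the collagen chaperone Hsp47, which had 1735, 1815, 1846 and 1873 CPM in the controls and 1682, 1590, 1731 and 1790 CPM in the mutants (log2 fold change -0.10, SE 0.0354, edgeR adjusted p = 0.197). Among 11 tested collagen receptors none was called in the main edgeR fit and 1 had an unadjusted p below 0.05. Adgrg1, a receptor for collagen III, had 62.5, 68.7, 61.5 and 57.3 CPM in the controls and 73.5, 66.6, 75.0 and 75.3 CPM in the mutants (log2 fold change 0.21, SE 0.0541, edgeR adjusted p = 0.0560), and DESeq2 called it. Mutant replicate 2 was the mutant inside the control range.

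Of 9 tested collagen-cleaving proteinases and their inhibitors none was called by edgeR or DESeq2, with 2 at an unadjusted p below 0.05 in edgeR. Mmp9, a gelatin-cleaving proteinase, had 1.11, 0.958, 0.904 and 0.789 CPM in the controls and 1.42, 1.496, 1.22 and 1.35 CPM in the mutants, with no overlap (log2 fold change 0.55, SE 0.218, edgeR adjusted p = 0.243). Of 7 tested propeptide proteinases and enhancers, which trim collagen before it forms fibrils, none was called by edgeR or DESeq2 and 0 had an unadjusted p below 0.05. The smallest p was that of Pcolce, an enhancer of this trimming, which had 159, 156, 148 and 149 CPM in the controls and 146, 142, 151 and 145 CPM in the mutants, with overlap (log2 fold change -0.07, SE 0.0354, edgeR adjusted p = 0.433).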

How the data were processed

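The values are raw counts in 1 table that the authors deposited, not normalized, with a column per library. Per the file headers, featureCounts 1.6.4 counted read pairs over the exons of GENCODE vM25 genes, reverse-stranded (strand option 2). The submitters' processing notes also name STAR, without a version, DESeq2 and the build GRCm38 (mm10). Per the file headers the options that keep reads shared by several places or genes were not set, so reads shared between near-identical genes were not counted. The deposited exon length per gene was used only for levels per kilobase. Gene symbols were found for 55141 of 55401 identifiers. Of the listed collagens, Col21a1 had no row in the table and was not analysed here.

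All 8 libraries entered 1 fit in edgeR 4.0.16 (R 4.3.3), with the package's expression filter (15788 genes, 99.9% of the counts), TMM scaling, robust dispersions and the two-sided quasi-likelihood F test of mutant against control without covariate. Adjusted p-values are Benjamini-Hochberg values over the 15788 genes, called below 0.05. Each SE is on the log2 scale. CPM values are TMM-scaled, those of Xist and the Y-linked genes included. The CPM given for the floor of 3 counts is per M counts of the library. The floor of 3 counts covers counting error only. The members, classes, pathway and marker lists were chosen with earlier results of these data known. The rule for named genes gave full values to collagens with an adjusted or unadjusted p below 0.05, the 2 highest per kilobase and the largest absolute change of each class, the called gene and the smallest p of each pathway list, and Myrf; other members were added after their values were seen.

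Alternatives were DESeq2 1.42.0, limma-voom (limma 3.58.1), other size factors, other filters, no robust estimation, a replicate block, the Y-linked level (log2) as covariate and each fit without 1 library; the fit on the 4 mixed libraries (Xist and Y-linked genes each at 10 CPM or more) was added after the data were seen. Same-numbered libraries were checked for pairing. The correlations of their deviations from the group means were 0.0811, 0.0648, 0.181 and 0.0125. For control replicates 1, 2 and 3 the same-numbered mutant gave the highest value among the mutants, and for control replicate 4 it did not. These values do not settle whether the numbers pair libraries. The labels name no pairs, so the main fit took none. No 2 libraries of a group were duplicates. The steps were tested on simulated data, with 200 changed genes in each of 3 runs. The fit called 54% of 1.25-fold, 84.7% of 1.5-fold and 96% of 2-fold changes, and 5.68% of its calls were false. Smaller changes were not simulated, so a collagen with a change below 1.25-fold that was not called may still differ.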

Additional observations from a re-analysis of the deposited data

Results flagged for a closer look

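Of 70 groups of 4 libraries, 1 library stood far from the other 3 of its group by Dixon's rule, which chance meets in about 1 of 20 groups. Col9a2, a collagen IX gene, was at 65.5 CPM in mutant replicate 1 and at 73.4 to 73.8 CPM in the other mutants, a gap of 0.942 of the range, above the critical value for 4 samples.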

How the results depend on the processing

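Over 17 alternatives, the log2 fold change of 26 of 35 collagens had 1 sign throughout and that of 9 turned. The number of collagens called was 2, and it was 4 with DESeq2, 8 with no low-count filter, 1 without robust estimation, 7 in the 4 mixed libraries and 1 to 3 without 1 library each (1 without control replicate 2 or 3). Over all genes, 236 became 380 with DESeq2, 791 with no filter, 142 without robust estimation, 97 with the Y-linked covariate, 87 in the 4 mixed libraries and 96 to 479 without 1 library, with 96 without control replicate 3, 100 without control replicate 1, 118 without mutant replicate 2, 121 without control replicate 2 and 479 without mutant replicate 4. With the Y-linked covariate 53 were higher and 44 lower, and in the mixed libraries 55 and 32, against 89 and 147. The pathway count of 1 was 2 with DESeq2, 3 with no filter, 0 without robust estimation, 2 with the Y-linked covariate and 0 to 1 without 1 library. In the 4 mixed libraries, and without control replicate 2 or mutant replicate 2, the called gene was Adgrg1 and not Loxl1. The median log2 fold change of the collagens, 0.03, was 0.074 with the Y-linked covariate, 0.078 in the 4 mixed libraries and -0.01 to 0.05 without 1 library. The cause of these shifts was not tested.

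The replicate block, in which the numbers are not shown to pair libraries, gave 6 called collagens (Col6a1, Col6a2, Col6a3 and Col8a2 higher, Col6a4 and Col14a1 lower) and 541 called genes, with a collagen median of 0.03 and 1 pathway gene. In that fit Col6a3 had a log2 fold change of 0.35 (edgeR adjusted p = 0.000455). Control replicates 1, 2 and 3 correlated best with the mutant of their own number (0.0811, 0.0648 and 0.181). Control replicate 4 correlated better with mutant replicate 1 (0.133) than with its own number (0.0125).

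The sign turned with the Y-linked covariate for Col9a3 (0.074), Col11a1 (0.0015) and Col18a1 (0.058). In the 4 mixed libraries it turned for Col9a3 (0.070), Col11a1 (0.066), Col27a1 (0.018), Col6a5 (0.057), Col18a1 (0.079) and Col11a2 (0.018). Without 1 library the log2 fold change ran from -0.0023 to 0.063 for Col9a1, -0.018 to 0.063 for Col5a1, -0.084 to 0.020 for Col9a3, -0.062 to 0.028 for Col11a1, -0.23 to 0.21 for Col28a1 and -0.078 to 0.014 for Col18a1, all of which had failed the test. The filter of 1 CPM gives no value for Col28a1. Depth limits Col6a4, Col6a5, Col5a3, Col28a1 and Col8a1, with 4 to 92 counts in a library, and Col10a1 and Col19a1, with 0 to 2.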
